A study of Homo sapiens with 31 samples.

Results

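The genes described here are 53 ribosome biogenesis factors, protein-coding genes whose products make, modify and assemble ribosomal RNA in the nucleolus. They were chosen by name for their known roles out of 56269 gene names in the count tables, but with earlier results of these data known. All 53 were found, and all 53 passed the filter on low counts with 15787 genes in all. By role they comprise 7 genes of RNA polymerase I and its factors, 3 box C/D and 4 box H/ACA snoRNP proteins, 3 nucleolar phosphoproteins and chaperones, 15 genes of small subunit processing and assembly, and 21 of large subunit processing and assembly.

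Poly(A) RNA was sequenced from MCF10A, an immortalised but non-transformed human breast epithelial line that needs growth factors to divide. The cells had been held for 2 to 3 days in medium with only 0.5 µg/mL hydrocortisone, 100 ng/mL cholera toxin, 0.3% BSA and antibiotics, and were then given full medium with 5% horse serum, 20 ng/mL EGF, 10 µg/mL insulin, hydrocortisone and cholera toxin. Palbociclib at 1 µM, which inhibits the cyclin D kinases CDK4 and CDK6, was in the release medium of 4 groups, collected at 9, 12, 15 and 24 h. The vehicle, 0.1% DMSO, was in that of 6 groups, collected at 3, 6, 9, 12, 15 and 24 h, and the starved cells at 0 h are the eleventh group. There were 3 libraries per group and 2 in both 24 h groups. MCF10A is 1 cell line. Nothing in the labels states that replicates came from separate cultures, so the spread behind each p-value is that between libraries and could be technical.

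Ribosome production starts with RNA polymerase I, which RRN3 and UBTF help to load on the ribosomal DNA repeats and which makes 1 long precursor RNA. Box C/D snoRNPs methylate the ribose of chosen bases and box H/ACA snoRNPs convert chosen uridines to pseudouridine, while large assemblies of helicases, nucleases, GTPases and scaffold proteins cut the precursor and fold it with ribosomal proteins into the small and large subunits. Growth factors are known to drive this programme when resting cells re-enter the cycle, partly through MYC, which binds the E-box hexamer CACGTG in promoters of many of its genes.

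Library totals ran from 10342358 to 20878364 counts. All 12 basal epithelial markers checked, such as KRT5 and KRT14, had a median above 1 CPM (counts scaled to an equal library size), with a summed level of 14610 to 27150 CPM. Of 8 luminal markers, 5 had a median above 1 CPM, and PGR and KRT19 were at or near 0. The list of blood, endothelial and fibroblast markers summed to 20.0 to 67.3 CPM, and 2 of its 11 genes (CD14 and COL1A1) had a median above 1 CPM. Libraries of 1 group differed along a main axis that held 27.5% of the within-group variance. Of the 53 factors, 50 loaded on its positive side, and their median loading was above that of 83.1% of all genes tested. The share of all genes on that side was not counted. Replicate 3 of DMSO 24 h and of the palbociclib groups stood opposite to the other replicate 3 libraries on the axis. Results that rest on these 5 libraries, said below to stand apart, are also given without them. Palbociclib 12 h replicate 2 scored -12.9, opposite in sign to every other replicate 2 library, and was not left out with them. Scores are deviations from group means, so they do not settle which library of a group is the unlike one. At palbociclib 15 h replicate 1 scored -31.6 and replicate 3 27.2.

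Promoters of 45 of the factors were matched by symbol in a RefSeq table of GRCh38.p14 windows, which run from 250 bases before to 50 bases after a gene's start. Of the factors' 58 windows, 20 (34.5%) held CACGTG, against 7.26% of all 35116 windows and 9.04% of the windows of genes tested here. The hexamer reads the same on both strands. The 4 factors with it and the largest rise by 6 h are shown first, then the 2 factors without it that had the lowest change. Both sets were picked by their change, so the contrast between them comes from the choice. Another window of LYAR, not shown, lacks the hexamer. Capitals mark CACGTG.
LYAR: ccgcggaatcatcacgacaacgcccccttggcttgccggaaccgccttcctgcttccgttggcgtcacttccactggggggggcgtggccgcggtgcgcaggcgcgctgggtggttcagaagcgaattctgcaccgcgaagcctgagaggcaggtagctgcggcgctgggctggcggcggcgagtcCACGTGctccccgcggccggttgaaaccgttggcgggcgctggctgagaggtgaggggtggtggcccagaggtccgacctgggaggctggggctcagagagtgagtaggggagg
RRP9: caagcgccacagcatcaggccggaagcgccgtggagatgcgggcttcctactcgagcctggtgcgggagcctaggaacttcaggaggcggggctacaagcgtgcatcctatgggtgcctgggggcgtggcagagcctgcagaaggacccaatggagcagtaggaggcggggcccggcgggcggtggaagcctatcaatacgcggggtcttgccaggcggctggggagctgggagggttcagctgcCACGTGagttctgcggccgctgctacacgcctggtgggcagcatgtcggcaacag
BYSL: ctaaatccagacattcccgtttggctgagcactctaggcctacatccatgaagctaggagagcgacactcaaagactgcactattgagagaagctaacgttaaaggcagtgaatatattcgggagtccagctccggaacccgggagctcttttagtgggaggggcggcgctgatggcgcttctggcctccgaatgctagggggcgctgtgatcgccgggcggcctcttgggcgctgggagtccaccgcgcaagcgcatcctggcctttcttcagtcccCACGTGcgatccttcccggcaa
LTV1: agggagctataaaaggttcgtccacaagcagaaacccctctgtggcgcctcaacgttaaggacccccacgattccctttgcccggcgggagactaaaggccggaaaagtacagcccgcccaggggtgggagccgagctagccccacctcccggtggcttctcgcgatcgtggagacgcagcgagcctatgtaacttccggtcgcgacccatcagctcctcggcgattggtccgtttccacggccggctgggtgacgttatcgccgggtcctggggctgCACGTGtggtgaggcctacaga
NOB1: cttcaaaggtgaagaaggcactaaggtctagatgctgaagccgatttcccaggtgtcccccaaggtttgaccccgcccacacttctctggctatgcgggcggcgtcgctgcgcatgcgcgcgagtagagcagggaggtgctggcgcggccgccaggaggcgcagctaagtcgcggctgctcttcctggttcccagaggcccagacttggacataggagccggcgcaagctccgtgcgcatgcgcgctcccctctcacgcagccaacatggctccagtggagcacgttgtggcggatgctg
POLR1D: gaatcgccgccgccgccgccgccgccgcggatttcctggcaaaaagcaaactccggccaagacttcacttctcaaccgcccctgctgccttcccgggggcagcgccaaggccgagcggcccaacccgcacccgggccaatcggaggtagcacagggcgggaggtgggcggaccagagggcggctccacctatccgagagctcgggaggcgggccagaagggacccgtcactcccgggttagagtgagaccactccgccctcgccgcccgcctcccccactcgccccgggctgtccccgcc
The windows lie at chr4:4289972-4290271 (minus strand) for LYAR, chr3:51941855-51942154 (minus) for RRP9, chr6:41921249-41921548 (plus) for BYSL, chr6:143843088-143843387 (plus) for LTV1, chr16:69754877-69755176 (minus) for NOB1 and chr13:27620493-27620792 (plus) for POLR1D. The hexamer begins 64 bases before the start site in LYAR and 5 bases before it in RRP9, and 28 bases after it in BYSL and LTV1. The 19 factors with CACGTG in a window had a median log2 change of 1.86 from 0 h to 6 h, and the 26 without it 1.28. Those medians are a description of overlapping groups, since the letters say nothing on binding in these cells. Other motifs were searched on both strands, none overlapping CACGTG in sequence. The ETS-type CCGGAAGT was in 22.4% of the factors' windows, against 4.14% of all windows and 6.99% of those of genes tested here. The palindromic NRF1 consensus was in 5.17%, against 1.24% and 1.8%. The E2F-type TTTCCCGC or TTTGGCGC was in 1.72% of the factors' windows, against 2.27% and 3.32%.

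The first comparison asks how these genes moved as starved cells were released into full medium. Most rose within 3 h, were highest at 6 h and stayed above the starved level to 24 h. At 6 h after release in DMSO, 50 of 53 factors were higher than at 0 h and 2 were lower at an adjusted p below 0.05 (edgeR's quasi-likelihood test, Benjamini-Hochberg adjustment over all genes, used for every adjusted p here), and 38 were at least 2-fold higher, as were 13.8% of all genes tested. The remaining one, NPM1, was not called. Across all genes at 6 h, 34% were called higher and 39.5% lower. The median log2 change was 1.35 for the factors and -0.08 for all genes. At 3 h, 47 factors were higher and 3 (NOB1, POLR1D and POLR1E) lower, against 27.8% and 34.4% of all genes, with a median of 0.92 for the factors and -0.10 for all genes. With library totals in place of TMM scaling, the median of all genes at 3 h was -0.27 and that of the factors 0.75. Under that scaling FBL, POLR1A, WDR12, WDR74, IMP3 and IMP4 lost their calls at 3 h, at 0.02 to 0.13, and DDX10 and NPM1 were called lower. At 9 h 48 were higher and 2 lower, against 35.3% and 39.9% of all genes. At 12 h the counts were 49 and 3, against 36.1% and 39.6%, and at 15 h 47 and 3, against 37.4% and 39.3%. POLR1D and NOB1 were lower at each of these times and UBTF joined them from 12 h. All these groups are set against the same 0 h libraries, so their results are not independent.

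**Figure D1:**
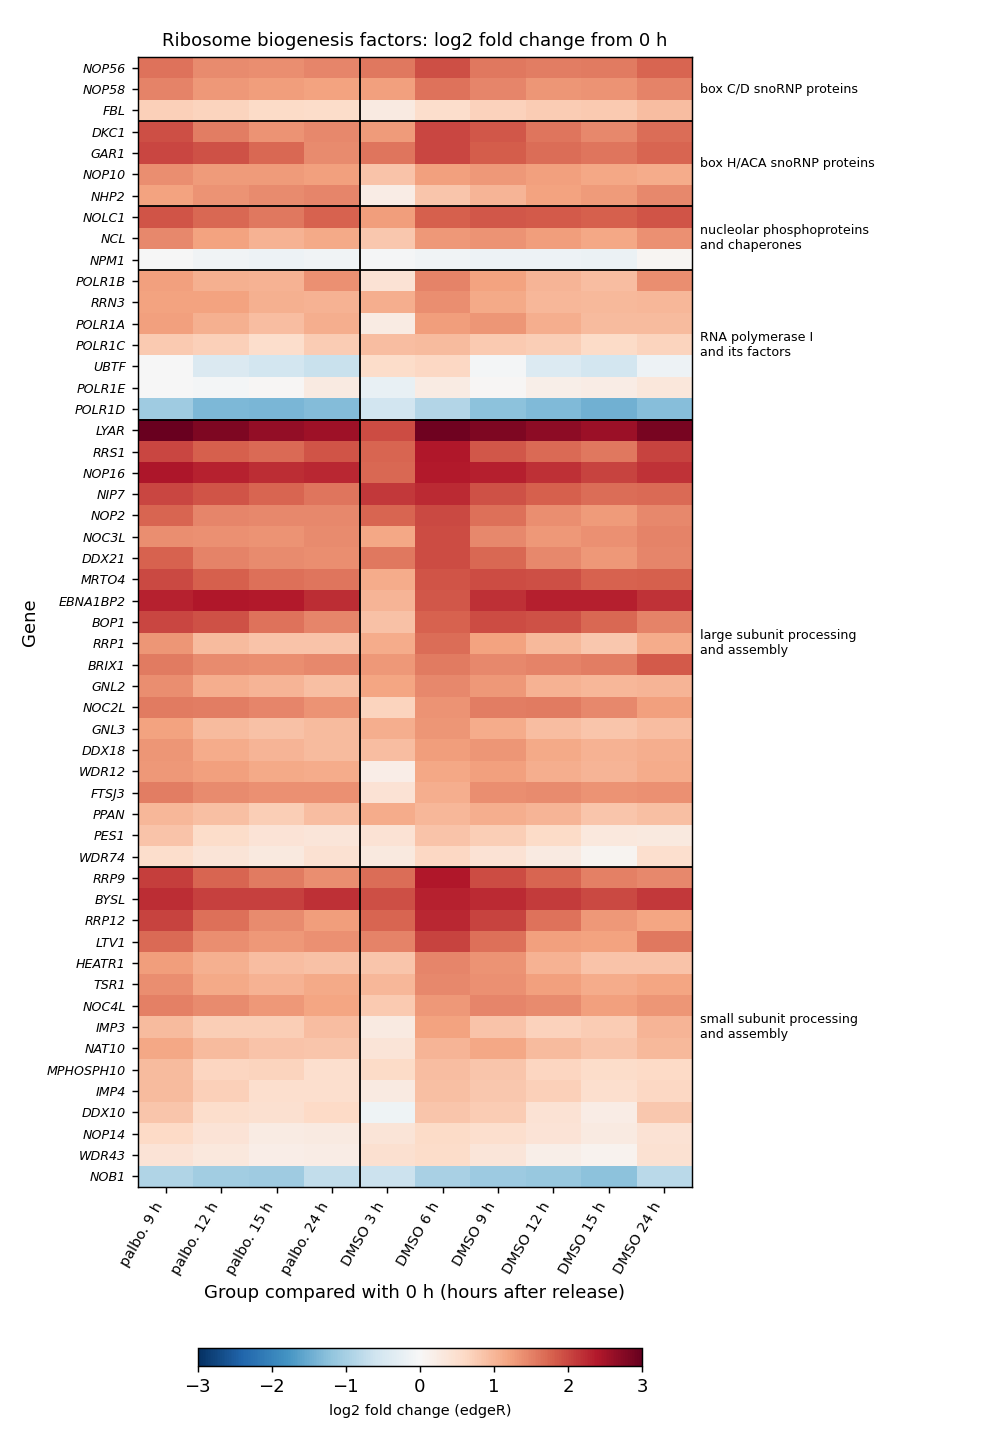
Log2 fold change from 0 h (colour, edgeR) of the 53 factors (rows, ordered within each role by the change at DMSO 6 h) in the 4 palbociclib groups and the 6 DMSO groups (columns, hours after release). Nearly every row is red in every column, LYAR reaches 2.92 at DMSO 6 h, and POLR1D and NOB1 are blue throughout.

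RNA polymerase I genes moved in different directions. Of the 7, 6 were higher at DMSO 6 h and 1, POLR1D, was lower, with a median log2 change of 0.95. POLR1B (chr2:112541915-112577150), the second largest subunit of the enzyme, had 144, 138 and 131 CPM at DMSO 6 h, against 47.6, 53.3 and 45.8 CPM at 0 h. All 3 DMSO 6 h libraries were above all 0 h libraries (log2 fold change 1.49 ± 0.06 SE, adjusted p = 4.79e-20). The 3 h libraries, at 64.0, 69.5 and 64.1 CPM, lay between them, so most of the POLR1B rise came between 3 and 6 h. POLR1A, the largest subunit, had the same late course, with a log2 change of 0.25 at 3 h and 1.25 at 6 h. RRN3 (chr16:15060022-15094317), which brings the polymerase to the promoter, rose early and had 92.4, 103 and 85.8 CPM at DMSO 6 h, against 34.7, 39.7 and 32.0 CPM at 0 h (1.40 ± 0.07 SE, adjusted p = 5.18e-17).

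UBTF (chr17:44205033-44221626) encodes the HMG-box protein that keeps ribosomal DNA open for transcription, and its rise was brief. It had 212, 225 and 212 CPM at DMSO 6 h, against 137, 148 and 136 CPM at 0 h (0.63 ± 0.05 SE, adjusted p = 2.56e-12). Group means were 140.4, 207, 216, 135, 106, 96.3 and 125 CPM at 0, 3, 6, 9, 12, 15 and 24 h. By 15 h every DMSO library lay below every 0 h library (-0.54 ± 0.05 SE, adjusted p = 9.21e-11). At 24 h UBTF was again near the 0 h level, with a log2 change of -0.16 (adjusted p = 0.0136). That call was lost without 0 h replicate 1 (adjusted p = 0.351) or 2 (0.0744), without DMSO 24 h replicate 1 (0.875, value turned to 0.015) or 3 (0.159), and without the 5 libraries (0.145), without a filter on low counts (0.181) and in a fit on the 0 h and DMSO 24 h libraries alone (0.147).

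POLR1D (chr13:27620742-27744237), a small subunit shared with RNA polymerase III, had 135, 141 and 125 CPM at DMSO 6 h, against 246, 266 and 230.1 CPM at 0 h (-0.89 ± 0.07 SE, adjusted p = 3.01e-13). It went on falling, to a mean of 91.3 CPM at DMSO 15 h, and the groups did not overlap. POLR1C, the other shared subunit, was higher at all 6 times, with log2 changes of 0.57 to 0.95, though 17.4% of its exon bases lie under genes of the opposite strand. POLR1E, the gene of the PAF53 subunit, first fell by 0.22 at 3 h (adjusted p = 0.00336) and was higher by 0.24 at 6 h (adjusted p = 0.00121). The 3 h call was lost without a filter on low counts (-0.21, adjusted p = 0.0594) and in a fit on the 0 h and DMSO 3 h libraries alone (-0.14, adjusted p = 0.148).

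**Figure D2:**
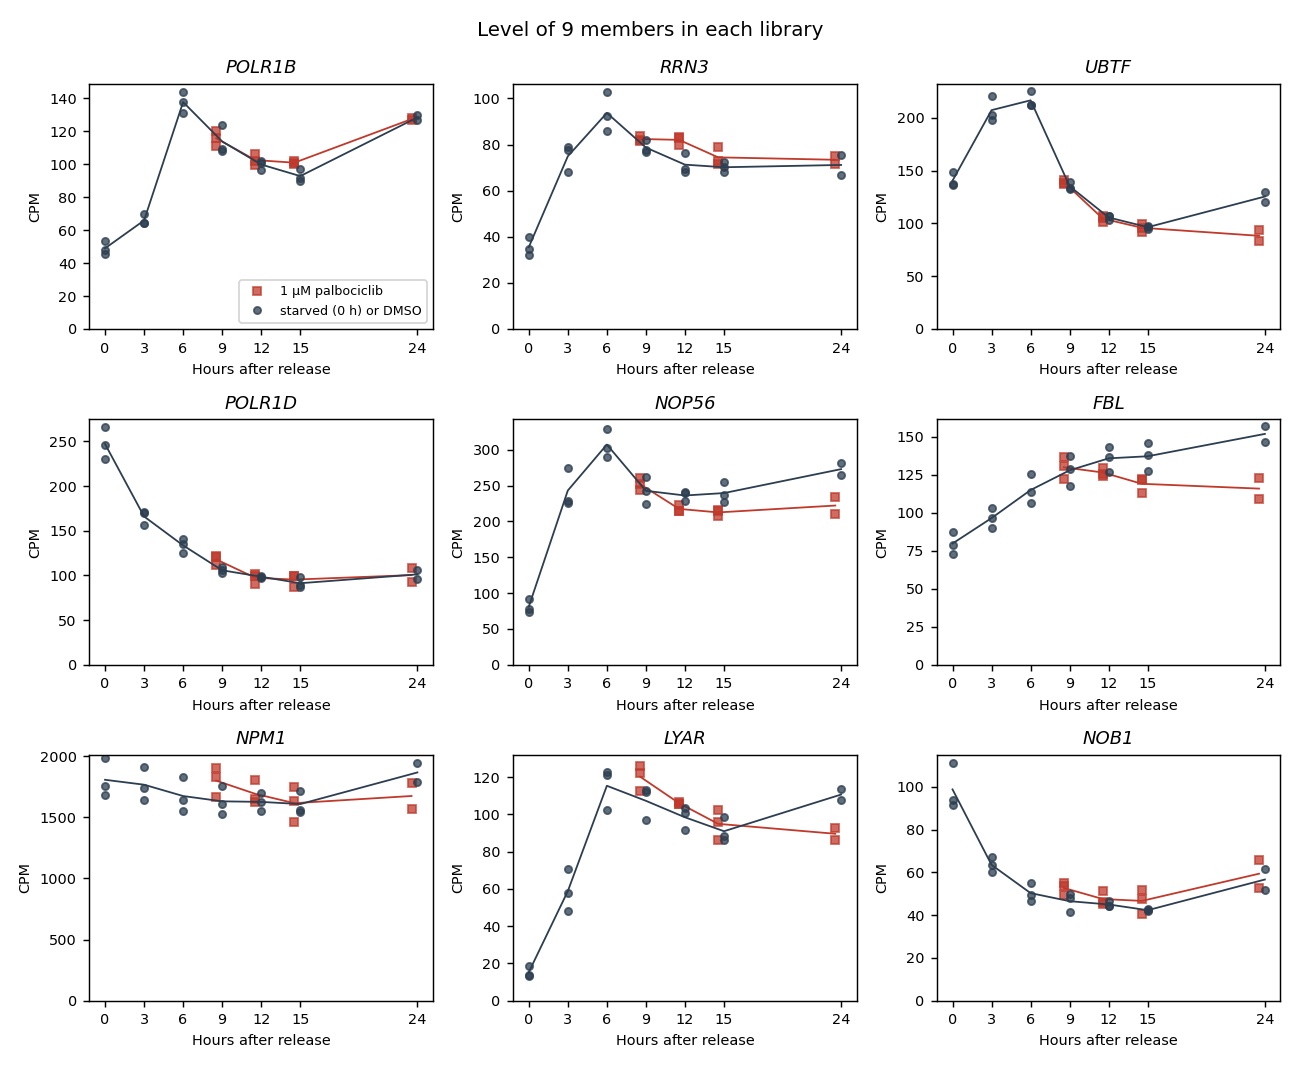
Level in CPM (vertical axes, from 0) of 9 factors in each library against hours after release. Red squares are palbociclib libraries, drawn slightly left of their time, dark circles are 0 h and DMSO libraries, and lines join group means. UBTF peaks at 3 to 6 h and ends lower under palbociclib, POLR1D and NOB1 fall, and NPM1 stays within log2 changes of -0.17 to 0.05 of 0 h in DMSO.

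All 7 snoRNP protein genes were higher at DMSO 6 h, by log2 changes of 0.53 to 2.02. NOP56 (chr20:2652145-2658393), a core box C/D scaffold, had 302, 329.5 and 290.3 CPM at DMSO 6 h, against 77.7, 92.4 and 73.1 CPM at 0 h (1.92 ± 0.08 SE, adjusted p = 5.99e-20), with a wide gap between the groups. Its partner NOP58 rose by 1.62. FBL (chr19:39834458-39846414), fibrillarin, the methyltransferase of the same particle, moved less and more slowly, to 113, 125 and 106 CPM at DMSO 6 h, against 78.9, 87.6 and 72.9 CPM at 0 h (0.53 ± 0.07 SE, adjusted p = 2.01e-07). FBL had its highest mean at 24 h, 152 CPM. NOP56 and NOP58 peaked at 6 h, so the 3 proteins of this particle did not peak together.

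In the box H/ACA group, DKC1 (chrX:154762742-154777689), dyskerin, the pseudouridine synthase, had 210.3, 229 and 192 CPM at DMSO 6 h, against 47.8, 60.5 and 47.8 CPM at 0 h (2.02 ± 0.09 SE, adjusted p = 3.79e-19). The lowest 6 h library was more than 3 times the highest 0 h library. GAR1 and NOP10, which bind dyskerin, rose by 2.00 and 1.22. NHP2 (chr5:178149460-178153967), the RNA-binding subunit, was slowest, with 53.7, 54.1 and 50.8 CPM at DMSO 6 h, against 31.1, 31.3 and 27.0 CPM at 0 h (0.83 ± 0.10 SE, adjusted p = 1.45e-08). Its mean went on climbing to 80.9 CPM at DMSO 24 h. At 3 h its change of 0.23 was not called (adjusted p = 0.0632), and the call turned on the processing. With DESeq2, DESeq2 size factors, no filter on low counts, a replicate block, an exon length trend removed or only the libraries of both groups it was called, at 0.22 to 0.31 (adjusted p 0.0261 to 0.0368), and likewise without 0 h replicate 1 (0.0369) or DMSO 3 h replicate 3 (0.00419). With library totals it was 0.058 (adjusted p = 0.604). The counting used no strand and left out reads of shared bases, and 27.4% of its exon bases lie under RMND5B on the opposite strand.

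Among the nucleolar phosphoproteins, NOLC1 (chr10:102152176-102163871), a snoRNP chaperone, had 387, 409 and 371 CPM at DMSO 6 h, against 101, 127 and 108 CPM at 0 h (1.79 ± 0.07 SE, adjusted p = 5.78e-20), with every released library far above. NCL (chr2:231453531-231483641), nucleolin, had 1249.7, 1378 and 1205 CPM at DMSO 6 h, against 484, 581 and 479.9 CPM at 0 h (1.31 ± 0.08 SE, adjusted p = 4.25e-16). NPM1 (chr5:171387116-171411137), nucleophosmin, the most abundant of the 53, had 1643, 1829.8 and 1549 CPM at DMSO 6 h, against 1758, 1981 and 1682 CPM at 0 h. Those libraries overlapped, and NPM1 was called in none of the 10 comparisons with 0 h in the fit of all libraries, its log2 changes in DMSO running from -0.17 to 0.05. Its values at 9, 12 and 15 h lay near the threshold (adjusted p = 0.0954, 0.0862 and 0.0579). At these 3 times it was called lower with a replicate block (adjusted p 0.00642 to 0.0153), with an exon length trend removed (0.0179 to 0.0361) and without 0 h replicate 3 (0.0271 to 0.0448, at -0.20 to -0.22), as well as without DMSO 9 h replicate 2 at 9 h (0.0382) and DMSO 15 h replicate 2 at 15 h (0.0305). With library totals in place of TMM scaling it was called lower at 3, 6, 9, 12 and 15 h, by -0.17 to -0.28. NPM1 has many near-identical pseudogene copies, and reads that match several places were not counted.

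Of the 15 small subunit factors, 14 were higher at DMSO 6 h and NOB1 was lower. RRP9 (chr3:51933430-51941941), a protein of the U3 particle that guides the first cuts, moved most, with 80.5, 90.7 and 71.4 CPM at DMSO 6 h, against 14.1, 17.9 and 13.7 CPM at 0 h (2.41 ± 0.11 SE, adjusted p = 1.00e-18). BYSL, bystin, needed for late small subunit maturation, rose by 2.31, RRP12, an export factor, by 2.25, and LTV1, a late assembly factor, by 2.02. LTV1 shares 34.8% of its exon bases with same-strand annotations. These 3 had already gained 1.93, 1.75 and 1.49 by 3 h.

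Other small subunit factors rose less. HEATR1, a large scaffold of the early processome, rose by 1.47 at 6 h, TSR1, a late GTPase-like factor, by 1.44, and NOC4L, a partner of NOP14 in the processome, by 1.30. IMP3, IMP4 and MPHOSPH10, which form 1 complex on the precursor, rose by 1.20, 0.90 and 0.92. For IMP3, 59.3% of exon bases lie under genes on the opposite strand, so its value is uncertain, and for HEATR1 and TSR1 23.2% and 20.8% are shared. NAT10, the RNA acetyltransferase, rose by 1.01, and NOP14 and WDR43 by 0.58 and 0.54.

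DDX10, an RNA helicase, came late. It had 31.4, 32.1 and 31.3 CPM at DMSO 3 h, against 34.2, 35.9 and 33.1 CPM at 0 h, a change of -0.12 that was not called (adjusted p = 0.111). At 6 h it had 61.2, 61.1 and 62.6 CPM, all above 0 h (0.84 ± 0.06 SE, adjusted p = 1.24e-13). NOB1 (chr16:69741867-69754940), the endonuclease that trims the end of the small subunit RNA as the last cut, went the other way. It had 49.2, 55.0 and 46.5 CPM at DMSO 6 h, against 93.9, 111 and 91.2 CPM at 0 h (-0.97 ± 0.09 SE, adjusted p = 3.23e-11). NOB1 was lower at all 6 DMSO times, by log2 changes of -1.22 to -0.64, with no overlap with 0 h at 6 h, though 20.2% of its exon bases lie under an opposite-strand gene.

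All 21 large subunit factors were higher at DMSO 6 h, and 19 of them at least 2-fold. LYAR (chr4:4267701-4290169), a nucleolar zinc-finger protein, had the largest rise of the 53, with 121, 123 and 102 CPM at DMSO 6 h, against 13.9, 18.4 and 13.4 CPM at 0 h (2.92 ± 0.12 SE, adjusted p = 2.85e-20). The DMSO 3 h libraries, at 57.8, 70.5 and 47.9 CPM, were already well clear of 0 h. WDR74 (chr11:62832342-62841809), a nucleolar partner of the pre-ribosome ATPase NVL, had the smallest rise, 34.2, 41.2 and 35.0 CPM at DMSO 6 h against 23.4, 26.4 and 22.6 CPM at 0 h (0.62 ± 0.09 SE, adjusted p = 4.59e-07), and 22.3% of its exon bases are shared with other genes. NOP2 (chr12:6556863-6568691), a cytosine methyltransferase of large subunit RNA, had 156, 178 and 169 CPM at DMSO 6 h, against 37.8, 50.5 and 38.7 CPM at 0 h (1.98 ± 0.08 SE, adjusted p = 9.31e-20).

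RRS1, which brings the 5S particle to the pre-ribosome, rose by 2.41, NOP16 by 2.39 and NIP7 by 2.25. NIP7, a late-binding RNA protein, had 2.11 at 3 h, the largest change of any factor then. BOP1, PES1 and WDR12 form the PeBoW complex, and they rose by 1.76, 0.85 and 1.16. The complex's members also differed in timing, since WDR12 had changed by only 0.19 at 3 h (adjusted p = 0.0158), and BOP1 by 0.87. The helicases DDX21 and DDX18 rose by 1.95 and 1.26, and the GTPases GNL3 (nucleostemin) and GNL2 by 1.33 and 1.43. NOC3L and NOC2L, which travel with the early large subunit, rose by 1.95 and 1.35. The remaining factors were MRTO4 (1.89), EBNA1BP2 (1.86), RRP1 (1.68), BRIX1 (1.56), FTSJ3 (1.09) and PPAN (1.00). PPAN shares 59.8% of its exon bases with P2RY11 and a read-through gene, whose shared reads were left out. EBNA1BP2, NOP16, FTSJ3 and RRS1 share 18.8%, 20%, 16.8% and 11.4% of theirs.

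After 6 h the rise stopped but was largely kept. Between 3 and 6 h, 45 factors rose and 2 fell, against 27.8% and 29.8% of all genes. The largest steps were in POLR1B (1.06), POLR1A (1.00), WDR12 (0.97) and LYAR (0.96), with NOB1 and POLR1D falling by 0.33 and 0.31. Between 6 and 9 h, 5 rose and 18 fell, against 18.1% and 16.6% of all genes. UBTF fell by 0.68 (adjusted p = 8.52e-12), RRS1 by 0.55, NOC3L by 0.52 and RRP1 by 0.47. The largest of the 5 rises were in EBNA1BP2 (0.32), FTSJ3 (0.31), BOP1 (0.20) and NOC2L (0.20). Without DMSO 9 h replicate 1 or 2, or DMSO 6 h replicate 3, the 5 rises became 2, 3 and 2.

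Later steps were smaller. Between 9 and 12 h, 14 factors fell and 0 rose, against 6.12% and 9.07% of all genes, led by RRP12 (-0.40), LTV1 (-0.40), UBTF (-0.36) and DDX10 (-0.33). Without DMSO 9 h replicate 1 the 14 became 7. Between 12 and 15 h, 4 fell and 0 rose, against 1.98% and 5.03% of all genes: RRP12, PES1, DDX10 and HEATR1, by 0.32, 0.25, 0.21 and 0.19. The 4 became 1 without replicate 1 of either group and 2 without replicate 2 of either group or DMSO 15 h replicate 3. From 15 to 24 h, 12 rose and 2 fell, against 16.5% and 13% of all genes. DDX10 rose by 0.58 (adjusted p = 4.19e-08), POLR1B by 0.47, RRS1 by 0.44 and NOB1 by 0.43, and BOP1 and NOC2L fell by 0.23 and 0.19. The 12 became 5 without DMSO 24 h replicate 3, which is also 1 of the 5 libraries that stand apart. The 2 falls became 0 without DMSO 15 h replicate 1 or 2 or either 24 h library.

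The highest group mean was the 6 h one for 32 factors, the 9 h one for 8, the 12 h one for 3 and the 24 h one for 7. PPAN peaked at 3 h, and POLR1D and NOB1 were highest at 0 h. The 7 with their highest mean at 24 h were FBL, NHP2, NCL, NOLC1, NPM1, BRIX1 and POLR1E, and their 24 h means rest on 2 libraries each. NCL and NOLC1 already had 95.2% and 95% of their largest log2 rise at 6 h. NPM1 was called higher at no DMSO time, its largest log2 change being 0.05. Among the 50 factors called higher at 1 or more DMSO times, the median factor had 66.4% of its largest log2 rise at 3 h. A called 2-fold rise was first reached at 3 h by 24 factors, against 10.6% of all genes at that time, at 6 h by 14 and at 9 h by 1, and 14 did not reach it. Peak times and first times after 3 h were not counted over all genes, so they describe the factors only. At 24 h in DMSO 49 factors were still higher than at 0 h and 3 lower, against 36.7% and 38.9% of all genes, with a median log2 change of 1.18.

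Levels of different genes were compared per kilobase of exon. At DMSO 6 h NPM1 led with 437 ± 37.4 CPM per kilobase (SD, n = 3), ahead of DDX21 with 199 ± 5.07 and NCL with 184 ± 12.9, which did not differ beyond their spread. NOP10 had 134 ± 8.38 and NOLC1 98.0 ± 4.81 CPM per kilobase. The median factor had 31.0 CPM per kilobase at DMSO 6 h, against 9.66 at 0 h. At 0 h NPM1 was also first, with 472 ± 40.7 CPM per kilobase, followed by NCL with 74.3 ± 8.22. PPAN, whose shared exon bases gave no counts but are in its length, was last in both groups, with 3.10 ± 0.153 at DMSO 6 h, against 1.54 ± 0.0146 at 0 h.

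Genes of the same pathway outside the 53 moved the same way at DMSO 6 h. Of 45 other small subunit processome genes tested, 42 were higher and 1 lower than at 0 h (median log2 change 1.13). PNO1, the partner of NOB1, rose by 2.89, NOL6 by 2.52 and RRP7A by 2.52, and RIOK3 fell by 0.98. Of 45 other large subunit assembly genes, 39 were higher and 2 lower (median 0.83), among them PAK1IP1 (2.40), URB2 (2.25) and MAK16 (2.24), with GLTSCR2 and NSA2 falling by 0.70 and 0.20. Of 13 snoRNP assembly genes, 11 were higher and 2 lower (median 0.94).

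Polymerase genes were more mixed. Of 11 other RNA polymerase I genes, 9 were higher and 1 lower (median 0.82). CD3EAP, a polymerase I subunit, rose by 2.94 and TAF1A, of the promoter factor SL1, by 2.26, while TAF1D fell by 0.54. CD3EAP shares 45.1% of its exon bases with ERCC1 and PPP1R13L on the opposite strand, and NSA2 above shares 58.7%. Of 15 RNA polymerase III genes, 10 were higher and 3 lower (median 0.42), with POLR3G rising by 3.69 and its paralog POLR3GL falling by 0.58. Of 17 exosome and nuclear decay genes, 10 were higher and 1 lower (median 0.35), with EXOSC3 rising by 1.69 and ZCCHC7 falling by 1.03. By contrast 65 of 78 cytosolic ribosomal protein genes were lower and 1, RPL17, was higher (median -0.29), with RPS9 falling by 0.95 and RPL13A by 0.68. Poly(A) RNA does not measure ribosomal RNA, and CPM values are shares of each library, so total RNA per cell is not seen here.

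Among 10 tested genes of MYC and its partners, 3 were higher and 5 lower at DMSO 6 h (median -0.21). MYC had 787, 835 and 733 CPM at DMSO 3 h, against 382, 223 and 356 CPM at 0 h (1.29 ± 0.11 SE, adjusted p = 3.94e-12), and every 3 h library was above every 0 h library. Its means at 0, 3, 6, 9, 12, 15 and 24 h were 320.4, 785, 569.5, 424, 374, 309 and 467 CPM. MXD4, a MAX partner that represses E-box genes, had 65.2, 65.6 and 61.1 CPM at DMSO 6 h, against 145, 145 and 142 CPM at 0 h (-1.17 ± 0.06 SE, adjusted p = 3.20e-18).

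The second comparison asks whether these genes need CDK4/6 activity. Under palbociclib the factors rose from 0 h about as widely as in DMSO. At 9, 12, 15 and 24 h under palbociclib, 48, 48, 48 and 49 factors were higher and 2, 3, 3 and 3 lower than at 0 h. The share of all genes called higher was 34.9%, 35%, 35.1% and 34.3% at those times, and called lower 40.8%, 40.4%, 39.9% and 36.9%. The lower ones were POLR1D and NOB1 at all 4 times and UBTF from 12 h. LYAR had 86.2 and 92.9 CPM at palbociclib 24 h, against 13.9, 18.4 and 13.4 CPM at 0 h (2.55 ± 0.12 SE, adjusted p = 8.30e-18). The factors' median log2 change was 1.39, 1.21, 1.07 and 1.14 at the 4 times.

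Set directly against DMSO at the same time, few factors differed, and by little. At 9 h 0 of 53 were called higher and 0 lower, against 0.114% and 1.08% of all genes. At an unadjusted p below 0.05, 2 were higher and 0 lower, against 4.47% and 5.09% of all genes, and DESeq2 called 0. All 53 intervals lay within a log2 difference of 0.5 in either direction, from -0.42 to 0.39. At 12 h 1 factor was lower and 0 higher, against 4.81% and 0.83% of all genes. At 15 h 1 was higher and 0 lower, against 2.15% and 8.79%, with 5 higher and 6 lower at an unadjusted p below 0.05, against 7.29% and 13.8% of all genes. Without DMSO 15 h replicate 3, 2 were lower at 15 h. At 12 h 3 were higher and 2 lower unadjusted, against 5.87% and 9.29% of all genes, and DESeq2 made the same counts of calls as edgeR at both times. All intervals at 12 and 15 h were also within 0.5. The E2F-regulated replication genes, targets downstream of CDK4/6, fell in 23, 25, 25 and 25 of 25 cases at 9, 12, 15 and 24 h, with median log2 differences of -1.68, -3.04, -3.78 and -2.69. The factors' medians were 0.06, 0.01, 0.04 and -0.08 at these times.

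**Figure D3:**
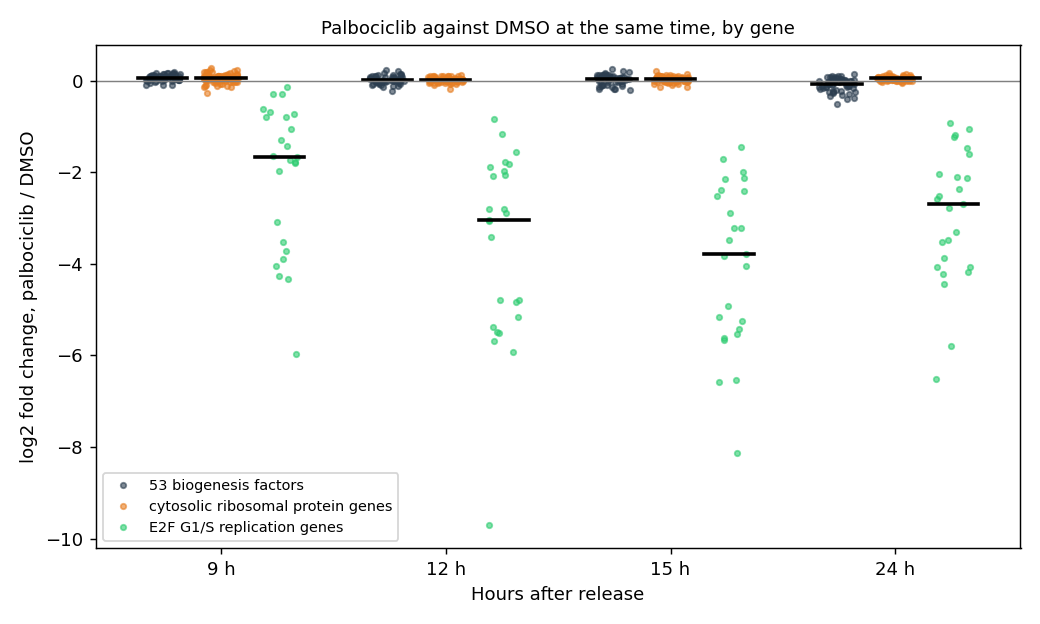
Log2 fold change of palbociclib over DMSO (vertical axis) for each gene at 9, 12, 15 and 24 h: the 53 factors (dark), 78 cytosolic ribosomal protein genes (orange) and 25 E2F replication genes (green), with black bars at the medians. The factors stay between -0.51 and 0.25, while E2F genes have medians of -1.68 to -3.78.

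The factor called at 12 h was POLR1E (chr9:37485935-37503697), with 41.4, 39.4 and 39.4 CPM under palbociclib and 46.4, 46.7 and 48.6 CPM in DMSO (-0.24 ± 0.06 SE, adjusted p = 0.0175). All 3 palbociclib libraries were below all 3 DMSO libraries, but the call was lost without the third library of either group or palbociclib replicate 2 (adjusted p 0.0772 to 0.0927), and without a filter on low counts (0.188). Without the 5 libraries that stand apart it was -0.22 (adjusted p = 0.129). The factor called at 15 h was DDX10 (chr11:108665025-108940930), with 45.5, 47.3 and 50.3 CPM under palbociclib and 39.8, 39.2 and 41.3 CPM in DMSO (0.25 ± 0.06 SE, adjusted p = 0.00487). It had a log2 difference of 0.21 without the 5 libraries (adjusted p = 0.0531) and lost its call without palbociclib 15 h replicate 3 (adjusted p = 0.0607) or without a filter on low counts (0.0852).

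At 24 h 5 factors were lower under palbociclib and 0 higher, against 12.3% and 5.76% of all genes. In this fit the share called lower, 5 of 53, was near that of all genes. The number called lower was 11 with a replicate block and 13 with an exon length trend removed. The share of all genes under those settings is not given here. At an unadjusted p below 0.05, 14 factors were lower and 0 higher, against 17.4% and 11.7% of all genes, and DESeq2 called 4 lower and 0 higher. UBTF had 83.0 and 93.3 CPM at palbociclib 24 h, against 121 and 130.1 CPM at DMSO 24 h, a gap wider than the spread within either group. Its log2 difference was -0.51 ± 0.07 SE, adjusted p = 4.65e-07. BRIX1 (chr5:34915376-34925996), a large subunit assembly factor, had 55.8 and 57.7 CPM under palbociclib and 73.2 and 76.0 CPM in DMSO (-0.39 ± 0.08 SE, adjusted p = 2.94e-04). Both calls held under all 12 alternatives, with UBTF at -0.61 to -0.43 and BRIX1 at -0.44 to -0.35.

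The other 3 calls at 24 h were less firm. FBL had 109 and 123 CPM under palbociclib and 147 and 157 CPM in DMSO (-0.39 ± 0.09 SE, adjusted p = 0.00199). NOP56 had 210.3 and 234 CPM under palbociclib and 265 and 281 CPM in DMSO (-0.30 ± 0.09 SE, adjusted p = 0.0207). DDX10 had 47.3 and 56.1 CPM under palbociclib and 58.8 and 61.2 CPM in DMSO (-0.21 ± 0.07 SE, adjusted p = 0.0475). In each gene both palbociclib libraries were the lower pair. Without palbociclib 24 h replicate 1 the adjusted p was 0.0669 for FBL, 0.234 for NOP56 and 0.544 for DDX10, and without DMSO 24 h replicate 3 it was 0.0694, 0.215 and 0.363. The DDX10 call was lost in 8 of 12 alternatives, those of other software, scaling, filtering and a fit on both groups alone giving adjusted p 0.0763 to 0.248 and the lack of DMSO 24 h replicate 1 0.0897, against 2 of 12 for FBL and 3 of 12 for NOP56. The number of factors called lower was 2 without either of these libraries and 12 without palbociclib 24 h replicate 3. Without the 5 libraries FBL stood at -0.45 (adjusted p = 0.0367), NOP56 at -0.35 (adjusted p = 0.114) and DDX10 at -0.33 (adjusted p = 0.0452).

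**Figure D4:**
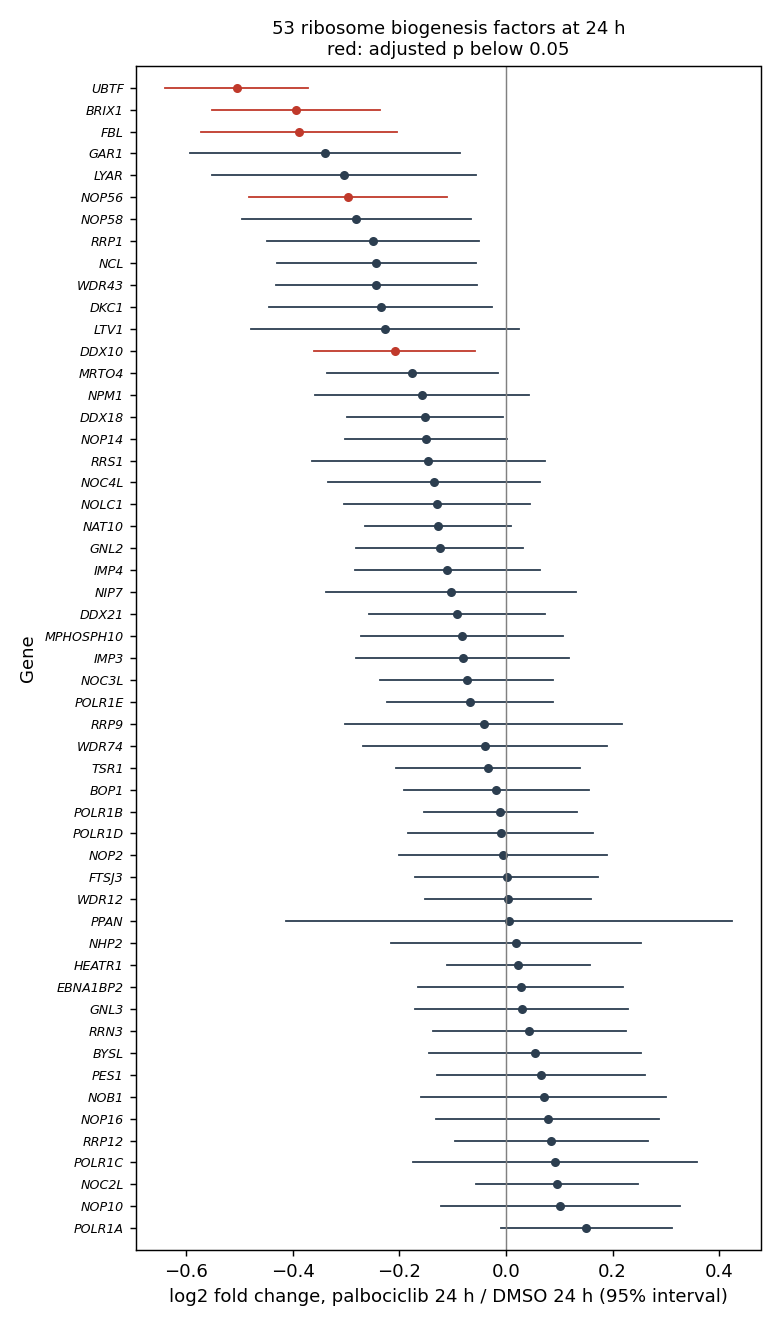
Log2 fold change of palbociclib 24 h over DMSO 24 h (horizontal axis) for the 53 factors (rows, lowest at the top), with 95% intervals from the edgeR fit and genes called at an adjusted p below 0.05 in red. UBTF is lowest at -0.51 and POLR1A highest at 0.15.

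All 3 box C/D proteins had negative values at 24 h, with NOP58 at -0.28 (adjusted p = 0.0624), and the median of the 3 was -0.30. Of the 4 box H/ACA proteins 0 were called, GAR1 being lowest at -0.34 (adjusted p = 0.0554) and NOP10 highest at 0.10. POLR1A, POLR1B and RRN3 had differences of 0.15, -0.01 and 0.04, with intervals of -0.01 to 0.31, -0.15 to 0.13 and -0.14 to 0.23. NPM1 had 1565 and 1783 CPM under palbociclib and 1790.2 and 1943 CPM in DMSO (-0.16 ± 0.10 SE, adjusted p = 0.31). On the within-group axis on which 50 factors load positively, palbociclib 24 h replicate 1 scored -25.4 and replicate 3 25.4. DMSO 24 h replicate 1 scored -11.4 and replicate 3 11.4. Scores in a group of 2 libraries are equal and opposite by construction, so these do not show which library stands apart. The median log2 difference over the factors was -0.14 in the replicate 1 pair and -0.05 in the replicate 3 pair, and the part of the axis in these calls was not tested. Bulk RNA cannot tell fewer cells in a cycle phase from less RNA in each cell.

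UBTF and DDX10 were also the only factors whose palbociclib effect differed between 24 and 15 h in the interaction test, against 1.92% of all genes called lower and 1.06% higher. UBTF had a difference of effects of -0.50 ± 0.09 (SE, adjusted p = 2.98e-04), with a drug difference of -0.01 at 15 h (95% interval -0.12 to 0.10). In DMSO UBTF rose by 0.38 between 15 and 24 h, and under palbociclib it changed by -0.12 (adjusted p = 0.19). DDX10 had a difference of -0.46 ± 0.10 (adjusted p = 0.00368), since it was higher at 15 h and lower at 24 h under the drug. That DDX10 call was lost without palbociclib 24 h replicate 1 (adjusted p = 0.0821) or DMSO 24 h replicate 3 (adjusted p = 0.0669), and in a fit on the 4 groups' own libraries (adjusted p = 0.054). Between 15 and 9 h, 0 factors differed in their effect, against 0.133% of all genes called higher and 3.91% lower. Of the factors, 2 were higher and 5 lower at an unadjusted p below 0.05, against 2.49% and 9.17% of all genes, and DESeq2 called 0.

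Under palbociclib, as in DMSO, most steps after 9 h were falls until 15 h. Between 9 and 12 h 22 factors fell and 0 rose, against 6.71% and 5.22% of all genes, led by UBTF (-0.41), DKC1 (-0.39), RRP1 (-0.37) and RRP12 (-0.37). The 22 became 14 without palbociclib 9 h replicate 1, 11 without palbociclib 12 h replicate 2 or 3, and 6 without the 5 libraries. Between 12 and 15 h BOP1 and RRP12 fell by 0.28 and 0.25 and 0 rose, against 1.59% and 1.38% of all genes. Both calls were lost without replicate 1 or 3 of palbociclib 12 h or replicate 1 or 2 of palbociclib 15 h, and 1 without its replicate 3. Between 15 and 24 h 3 rose and 0 fell, against 11.2% and 9.31% of all genes. These were NOB1 by 0.35, POLR1B by 0.34 and POLR1E by 0.24. Without palbociclib 24 h replicate 3, 1 rose and 3 fell, and without palbociclib 15 h replicate 1, 1 fell. NOB1 and POLR1E both lost their calls without palbociclib 15 h replicate 1 (adjusted p = 0.116 and 0.0638), without palbociclib 24 h replicate 3 (0.55 and 0.272), without the 5 libraries (0.542 and 0.401) and in a fit on these libraries alone (0.0787 and 0.0875). POLR1E also lost its call without palbociclib 15 h replicate 3 (0.0707) or a filter on low counts (0.161), and POLR1B kept its call in every alternative run. POLR1B thus rose late in both media, with 127 and 128 CPM at palbociclib 24 h, against 100.3, 102 and 100.5 CPM at palbociclib 15 h.

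Other pathway lists were set against the same background at 24 h, 5.76% of all genes higher and 12.3% lower under palbociclib. Of 45 other small subunit processome genes 1 was higher and 2 lower (median -0.07), of 45 large subunit assembly genes 0 and 1 (median -0.03), and of 13 snoRNP assembly genes 0 and 2 (median -0.09). Of 11 polymerase I genes 2 were lower (median -0.19) and of 15 polymerase III genes 1 (median -0.02). Of 17 exosome genes 4 were lower (median -0.08), and 0 were higher in each polymerase or exosome list. The exosome, polymerase I and snoRNP lists had a share called lower above that of all genes. Those shares rest on 4, 2 and 2 genes and were not tested. Ribosomal protein genes had 0 called of 78 (median 0.05). MXD4 had 102 and 103 CPM at palbociclib 24 h, against 52.8 and 49.9 CPM at DMSO 24 h (1.00 ± 0.07 SE, adjusted p = 4.34e-13), while MYC had 506 and 549 CPM, against 470.4 and 463 CPM (0.18 ± 0.13 SE, adjusted p = 0.396).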

How the data were processed

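The libraries were stranded, from poly(A) RNA, and sequenced from 1 end for 75 nt, per the labels. TopHat2 2.1.1, Bowtie2 2.2.9, FastQC 0.11.3, Subread 1.5.1 and the build GRCh38.p7 are named in the submitters' processing notes. Each deposited table holds unnormalized counts for every gene name, which the authors made with featureCounts 1.5.1 on GENCODE 25 exons, per the file headers. No strand option was set and multi-mapping or ambiguous reads were left out, so genes that overlap on the opposite strand are uncertain. A deposited series table with 31 columns of the same samples was not used.

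In R 4.3.3, edgeR 4.0.16 scaled counts by TMM (factors 0.927 to 1.081), kept the 15787 genes that passed filterByExpr and fitted all 31 libraries by group with the quasi-likelihood model (20 residual degrees of freedom). Each of 24 contrasts was adjusted over all genes by Benjamini-Hochberg, and calls were made where that p was below 0.05. Log2 fold changes have standard errors of the change over the square root of F, and 95% intervals. CPM values use TMM factors, and CPM per kilobase divides by exon length. The common biological coefficient of variation was 6.55%. Replicates differed beyond sampling noise in every group (chi-square per degree of freedom 3.28 to 18.0). Each library counted as 1 sample, though that spread could be technical and does not show separate cultures. On simulated counts the fit recovered planted changes at 1.5-fold, 2-fold and 4-fold, all in genes with higher counts. Smaller changes, the size of the factors' palbociclib differences, were not planted, so their recovery was not tested. The simulated libraries were independent and had the same spread for every gene, so this does not cover the within-group axis of these data. Alternatives were DESeq2 1.42.0, other scalings, no filter, fits on a contrast's own libraries, leaving out libraries, a replicate block and removal of an exon length trend.

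The factors and the other gene lists were chosen with earlier results of these data known. Named genes followed a rule: all 53 factors, library by library for the largest and smallest change at DMSO 6 h in each role and for POLR1B, RRN3, UBTF, NOP56, FBL, DKC1, NCL, NPM1 and NOP2; up to 6 called each way per drug contrast and 4 per step; and up to 3 each way per list. Library values beyond this rule were added for DDX10, LYAR, POLR1B and MYC at other times after their values were seen.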

Additional observations from a re-analysis of the deposited data

Results flagged for a closer look

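The effect of palbociclib on UBTF differed between 24 and 15 h in the interaction test, by a log2 difference of -0.50 (adjusted p = 2.98e-04, edgeR's quasi-likelihood test). At 24 h UBTF had 83.0 and 93.3 CPM under palbociclib and 121 and 130.1 CPM in DMSO, and at 15 h 91.8, 99.6 and 96.0 CPM under palbociclib and 96.6, 97.9 and 94.5 CPM in DMSO. The groups overlapped at 15 h and not at 24 h. The same test gave -0.46 for DDX10 (adjusted p = 0.00368). DDX10 was higher under palbociclib in all 3 libraries at 15 h and lower in both at 24 h. The 24 h groups hold 2 libraries each.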

How the results depend on the processing

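Of 366 recomputed counts of called factors (24 contrasts, 2 directions), 328 stayed within 1.5 times the reported count. At 6 h against 0 h, 50 were higher under every alternative run and 2 were lower, except 3 lower with library totals, NPM1 being added. Library totals in place of TMM moved the median of all genes at 3 h from -0.10 to -0.27 and that of the factors from 0.92 to 0.75, gave 5 factors lower at 3 h and 4 at 9 h against 0 h, 8 lower at 15 h against 12 h, 5 lower for palbociclib 12 h against 0 h, and 1 lower for palbociclib 24 h against palbociclib 15 h. DESeq2 size factors and the DESeq2 Wald test also gave 1 in that last contrast. Without a filter, 2 were higher at 9 h against 6 h, 2 lower at 15 h against 12 h, 0 lower at 24 h against 15 h, 0 lower for palbociclib against DMSO at 12 h, 0 higher at 15 h, and 1 lower for palbociclib 15 h against 12 h. Fits on a contrast's own libraries gave 10 lower at 15 h against 12 h, 1 lower for palbociclib 15 h against 12 h, 1 higher for palbociclib 24 h against 15 h, and 1 lower in the interaction of 24 against 15 h. With an exon length trend removed, 8 were higher at 9 h against 6 h, 7 lower at 15 h against 12 h, 20 higher at 24 h against 15 h, 1 higher and then 4 and 13 lower for palbociclib against DMSO at 12, 15 and 24 h, 4 lower for palbociclib 15 h against 12 h, and 5 higher and 1 lower for palbociclib 24 h against 15 h. Without the 5 libraries of replicate 3 that stand apart, which leaves 1 library in each 24 h group assumed to vary like the others, 5 were higher and 0 lower at 24 h against 15 h, 0 were called for palbociclib against DMSO at 12 h (lower) and 15 h (higher), 6 were lower for palbociclib 12 h against 9 h, 0 lower for 15 h against 12 h and 1 higher for 24 h against 15 h. The cause of these shifts was not tested.

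Whether replicate numbers pair the libraries was checked from same-number correlations of deviations from group means, with pairing taken where all 3 exceeded 0.1. For palbociclib against DMSO they ran from -0.249 to 0.113 at 9 to 15 h, so the numbers did not pair those libraries. At 24 h both were 0.297. The rule needs 3 pairs and the 24 h groups hold 2 libraries each, so it could not decide there. Among 0 h and DMSO 3 to 15 h, in 9 contrasts, they were 0.239 to 0.422 for replicate 2, 0.114 to 0.364 for replicate 3 and 0.002 to 0.061 for replicate 1, and libraries correlated best with their own number in 46 of 54 cases. Replicate 2 libraries thus deviated alike across these times, as did replicate 3 libraries. Replicate 2 against replicate 3 gave -0.436 to -0.159, so the numbers 2 and 3 were opposed. Replicate 1 did not pass 0.1. Deviations in a group sum to 0, so with 2 and 3 opposed the rule of all 3 can miss a pairing. The labels name no shared batch. With the replicate block, NPM1 was called lower at 9, 12 and 15 h against 0 h (-0.15, -0.15 and -0.17), NHP2 higher at 3 h (0.22), FBL lower for palbociclib against DMSO at 15 h (-0.20) and NCL at 24 h (-0.24), and of the other gene values recomputed singly 0 changed call. By count, 1 factor was higher at 12 h against 9 h, 22 higher at 24 h against 15 h, 2 lower for palbociclib against DMSO at 15 h, 11 lower at 24 h, and 4 lower for palbociclib 15 h against 12 h.

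Leaving out 1 library at a time gave 2 to 6 factors higher and 14 to 19 lower at 9 h against 6 h, 7 to 13 lower at 12 h against 9 h, 1 to 3 lower at 15 h against 12 h, and 5 to 14 higher and 0 to 2 lower at 24 h against 15 h. For palbociclib against DMSO it gave 0 to 1 lower at 12 h, 0 to 1 higher and 0 to 2 lower at 15 h, and 2 to 12 lower at 24 h. Under palbociclib it gave 11 to 16 lower at 12 h against 9 h, 0 to 2 lower at 15 h against 12 h, 1 to 4 higher and 0 to 3 lower at 24 h against 15 h, and 1 to 3 lower in the interaction of 24 against 15 h. UBTF at DMSO 24 h against 0 h was -0.16 with all libraries and -0.18 to 0.015 with 1 left out, the highest value being that without DMSO 24 h replicate 1. Counts over all genes also moved, here under the alternatives other than leaving out 1 library at a time. For palbociclib against DMSO, 6 to 62 were higher at 9 h (18 reported), 59 to 240 at 12 h (131) and 145 to 595 at 15 h (340). By CPM without a length, 3 of the 6 highest factors at 0 h and 4 of 6 at DMSO 6 h were the same.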
